A study of Mus musculus with 435 samples.

Results

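The plasma carrier protein genes described here are Alb, Trf, Ttr, Ahsg, Ambp, Rbp4 and Vtn, 7 of the 13409 genes named on the array. They were chosen by symbol in the probe-to-gene table of the series, a rule that uses no measured value, though the set itself was picked with earlier results of these data known. Each has 1 probe of the 17280 probe positions, and all 7 were measured widely enough to be tested, among 7643 such probes.

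Liver RNA was measured on 2-colour arrays from C57 and A/J mice, both inbred laboratory strains, fed a diet high or low in fat. The 4 combinations are C57 high-fat, C57 low-fat, A/J high-fat and A/J low-fat, at week 0, week 1 and weeks 3 to 11. Every liver sample carried Cy5 and was set against the same kind of Cy3 pool of RNA from C57 tissues, with no dye swap, so a dye effect on a probe is shared by all arrays. Per the labels the pool held liver and kidney at 26% each, brown fat at 13%, skeletal muscle at 12%, lung and hypothalamus at 6% each, white fat at 5%, brain at 4%, testes at 2% and heart at 1%. The age, sex and number of mice and the composition of the diets are not given in the sources used here, and the labels do not say which arrays share a mouse.

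The liver makes most of the proteins of blood plasma, and hepatocytes secrete the products of all 7 genes. Albumin (Alb), the most abundant plasma protein, carries fatty acids, bilirubin and hormones and holds water in the vessels. Transferrin (Trf) carries iron to cells with transferrin receptors, and transthyretin (Ttr) carries thyroxine and holds the retinol carrier Rbp4 in the circulation. Fetuin-A (Ahsg) binds calcium phosphate and keeps it from precipitating. Ambp encodes a precursor that is cut into alpha-1-microglobulin, a haem binder, and bikunin, a protease inhibitor that joins the inter-alpha-inhibitor heavy chains. Vitronectin (Vtn) binds integrins and the plasminogen activator inhibitor PAI-1. In bulk liver, fewer hepatocytes and less of a transcript per hepatocyte cannot be told apart.

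Promoters of genes of this kind hold sites for liver transcription factors such as HNF1, and the 250 bases before the start site are shown for albumin and fetuin-A, whose strain differences ran in opposite directions, and for vitronectin. They are from RefSeq on GRCm38.p6, 5′ to 3′ on the strand of the gene, all 3 on the plus strand, at chr5:90460620-90460869 for Alb, chr16:22891765-22892014 for Ahsg and chr11:78498870-78499119 for Vtn. Capitals mark matches on either strand to TATAAA, the core of a TATA box, or to GTTAAT, a partial HNF1 site.
Alb: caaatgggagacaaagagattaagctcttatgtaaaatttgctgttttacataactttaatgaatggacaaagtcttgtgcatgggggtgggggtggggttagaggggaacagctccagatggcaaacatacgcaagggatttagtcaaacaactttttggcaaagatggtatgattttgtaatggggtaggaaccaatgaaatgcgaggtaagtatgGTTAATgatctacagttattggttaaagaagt
Ahsg: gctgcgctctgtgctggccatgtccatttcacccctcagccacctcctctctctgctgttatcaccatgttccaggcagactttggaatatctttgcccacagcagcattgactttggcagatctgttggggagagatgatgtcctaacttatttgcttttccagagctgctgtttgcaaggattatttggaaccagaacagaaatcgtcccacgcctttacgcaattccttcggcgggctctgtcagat
Vtn: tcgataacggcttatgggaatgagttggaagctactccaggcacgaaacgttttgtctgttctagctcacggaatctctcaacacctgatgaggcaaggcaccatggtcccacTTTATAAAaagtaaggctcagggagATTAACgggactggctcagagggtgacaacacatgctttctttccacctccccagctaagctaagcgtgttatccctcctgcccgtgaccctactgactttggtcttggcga

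In the Alb sequence GTTAAT lies at positions -32 to -27 from the start site. The Vtn sequence holds overlapping TATAAA matches on opposite strands at -137 to -132 and -135 to -130, and GTTAAT on the minus strand at -112 to -107. Neither motif is written in the 250 bases of Ahsg. In the promoter table of 32851 windows of that length, TATAAA was found in 12.4% and GTTAAT in 6.43%. The C/EBP palindrome TTGCGCAA (0.164% of windows) and AAAGTCCA, an HNF4 core (1.01%), were searched as well and occur in none of the 3. In the windows of Ambp and Rbp4, which are not shown, the only match was TATAAA at -28 to -23 for Rbp4. Such matches describe the letters and are not sites shown to be bound. The table gave no window matched to Trf, and Ttr is not reported here.

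Of 435 arrays, 2 pairs with identical values were counted once, which left 433. At week 8, 28 arrays were unlike all others, with a correlation to the median of all arrays below 0.15, and week 8 was left out together with 4 such arrays of other weeks. The comparisons over time rest on 350 arrays in 36 groups over 9 weeks (weeks 1, 3 to 7 and 9 to 11), and the members were measured on 341 to 349 of them. Levels are log2 ratios of liver over the pool, on the reading from the values that the deposited numbers are linear ratios, centred so that the median tested probe of each array is 0. Of 11 measured hepatocyte marker genes 8 lay above 0, with a median level of 0.40, while 5 of 5 skeletal muscle markers lay below 0, with a median of -1.83. Signal intensities are not in the files, so the depth behind a single ratio is unknown.

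Albumin, transferrin and transthyretin transcripts had a mean level above 0, the median tested probe, in every group. The mean level over the 36 groups was 1.11 for Alb (group means 0.54 to 1.99), 1.21 for Trf (0.41 to 2.02) and 1.39 for Ttr (0.38 to 2.77). Each of these 3 had 36 of 36 group means above 0, which 7.89% of all tested probes did. The mean level was 0.37 for Ahsg (-0.75 to 1.53), 0.48 for Ambp (-0.22 to 1.17), 0.30 for Rbp4 (-0.84 to 1.16) and 0.44 for Vtn (-0.40 to 1.40). These 4 were above 0 in 30, 29, 31 and 31 groups. Probes differ in how they report a ratio, so levels are compared here between conditions and not between genes.

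**Figure D1:**
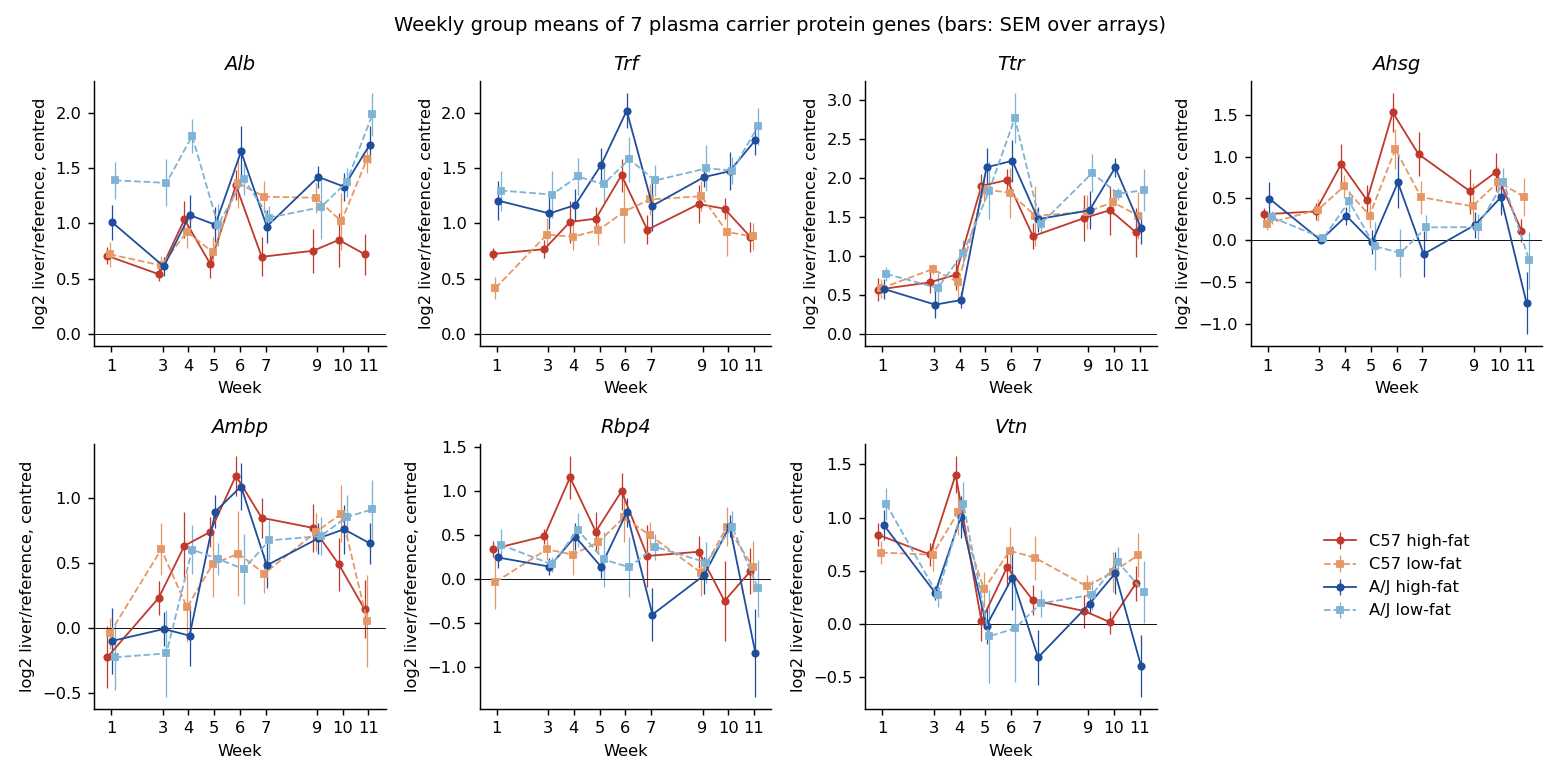
Weekly mean level of each gene (y axis, centred log2 liver over pool) against week (x axis, weeks 1, 3 to 7 and 9 to 11) in C57 high-fat, C57 low-fat, A/J high-fat and A/J low-fat livers, with bars of 1 standard error over the arrays of a group. On the same diet the Trf line of C57 runs below that of A/J, Ahsg shows the opposite order in most weeks, and the Ttr lines step up between weeks 4 and 5.

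Transferrin was lower in C57 than in A/J livers on both diets, with high-fat feeding albumin was lower and fetuin-A higher in C57, and the other 4 genes did not pass the threshold for a strain difference. On the high-fat diet 3 of 7 genes passed (Alb, Trf and Ahsg), against 3.94% of all 7643 probes. On the low-fat diet 1 of 7 passed (Trf), against 2.39% of all probes. Calls are those with a Benjamini-Hochberg adjusted p under 0.05 in limma, fitted to 1 mean per group, which makes weeks the replicates.

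Single C57 high-fat arrays had Trf levels from 0.08 to 2.13 with a median of 0.96, against 0.00 to 2.91 with a median of 1.42 in A/J high-fat arrays. Single C57 low-fat arrays ran from -0.59 to 2.12 with a median of 0.97, against 0.07 to 2.79 with a median of 1.59 in A/J low-fat arrays. Single arrays of the strains overlapped on both diets, with the C57 medians lower.

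Mean Trf was 1.01 ± 0.22 in C57 and 1.42 ± 0.31 in A/J livers on the high-fat diet (SD of 9 weekly means each). On the low-fat diet it was 0.94 ± 0.25 in C57 and 1.46 ± 0.18 in A/J livers. The 9 weekly means of C57 low-fat livers, up to 1.25, all lay below those of A/J low-fat livers, which began at 1.26, and 0.0654% of all probes were separated in that direction. On the high-fat diet the weekly means overlapped, with 0.72 to 1.44 in C57 and 1.09 to 2.02 in A/J.

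The difference of C57 from A/J for Trf was -0.41 ± 0.09 on the high-fat diet (SE, 95% interval -0.59 to -0.23, limma adjusted p = 0.00313), or 1.33-fold lower. On the low-fat diet it was -0.52 ± 0.09 (-0.69 to -0.34, limma adjusted p = 0.000353), or 1.43-fold lower. Both calls held with each of the 9 weeks left out in turn, with adjusted p up to 0.0137 and 0.00371. The high-fat differences at weeks 1, 3 to 7 and 9 to 11 were -0.48, -0.32, -0.15, -0.48, -0.58, -0.22, -0.24, -0.34 and -0.87. The low-fat ones were -0.88, -0.36, -0.55, -0.42, -0.47, -0.17, -0.25, -0.56 and -0.99. Transferrin was lower in C57 in 9 of 9 weeks on each diet, which 1.23% of all probes were under high-fat and 0.693% under low-fat feeding. It was lower in 18 of 18 combinations of diet and week, as were 0.236% of all probes.

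Albumin levels on single arrays ran from -0.58 to 1.92 with a median of 0.79 in C57 high-fat livers, against 0.04 to 2.65 with a median of 1.24 in A/J high-fat livers. In C57 low-fat livers they ran from -0.52 to 2.48 with a median of 1.06, against -0.20 to 2.83 with a median of 1.38 in A/J low-fat livers. The strains overlapped on both diets.

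Mean Alb was 0.81 ± 0.24 in C57 and 1.20 ± 0.36 in A/J livers on the high-fat diet, and 1.05 ± 0.33 in C57 and 1.39 ± 0.33 in A/J livers on the low-fat diet (SD of 9 weekly means each). The high-fat difference was -0.39 ± 0.10 (SE, 95% interval -0.60 to -0.17, limma adjusted p = 0.0275), or 1.31-fold lower in C57, and it was negative in 9 of 9 weeks. With each week left out in turn the difference ran from -0.43 to -0.31, and it passed in 4 of 9 such fits (limma adjusted p 0.0185 to 0.108), missing without week 1, 5, 9, 10 or 11. The low-fat difference was -0.34 ± 0.10 (-0.55 to -0.12) and missed the threshold (limma adjusted p = 0.0921). At weeks 1, 3 and 4 it was -0.67, -0.75 and -0.87 on the low-fat diet, and at the later weeks it lay between -0.40 and 0.19. On the high-fat diet the weeks ran the other way, with -0.30, -0.07 and -0.04 at weeks 1, 3 and 4 and -0.27 to -0.99 afterwards.

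Fetuin-A had the opposite sign. Single-array levels of Ahsg ran from -0.88 to 2.74 with a median of 0.56 in C57 high-fat livers, against -2.44 to 1.83 with a median of 0.18 in A/J high-fat livers. In C57 low-fat livers they ran from -1.61 to 2.08 with a median of 0.46, against -2.35 to 1.46 with a median of 0.20 in A/J low-fat livers. The arrays overlapped, and the low end was occupied by A/J arrays on both diets.

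Mean Ahsg was 0.68 ± 0.44 in C57 and 0.14 ± 0.44 in A/J livers on the high-fat diet, and 0.52 ± 0.26 in C57 and 0.14 ± 0.30 in A/J livers on the low-fat diet (SD of 9 weekly means each). The high-fat difference was 0.54 ± 0.13 (SE, 95% interval 0.28 to 0.80, limma adjusted p = 0.00839), or 1.46-fold higher in C57. It was positive in 8 of 9 weeks and passed in 8 of 9 fits with a week left out. Without week 7, the week with the largest value, 1.19, it was 0.46 and missed the threshold (limma adjusted p = 0.0573). The low-fat difference was 0.38 ± 0.13 (0.12 to 0.64, limma adjusted p = 0.134), positive in 8 of 9 weeks with 1.24 at week 6. Over both diets Ahsg was higher in C57 in 16 of 18 combinations, where 2.93% of all probes were higher in at least 16. Alb was lower in C57 in 16 of 18, where 1.3% of all probes were lower in at least 16.

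**Figure D2:**
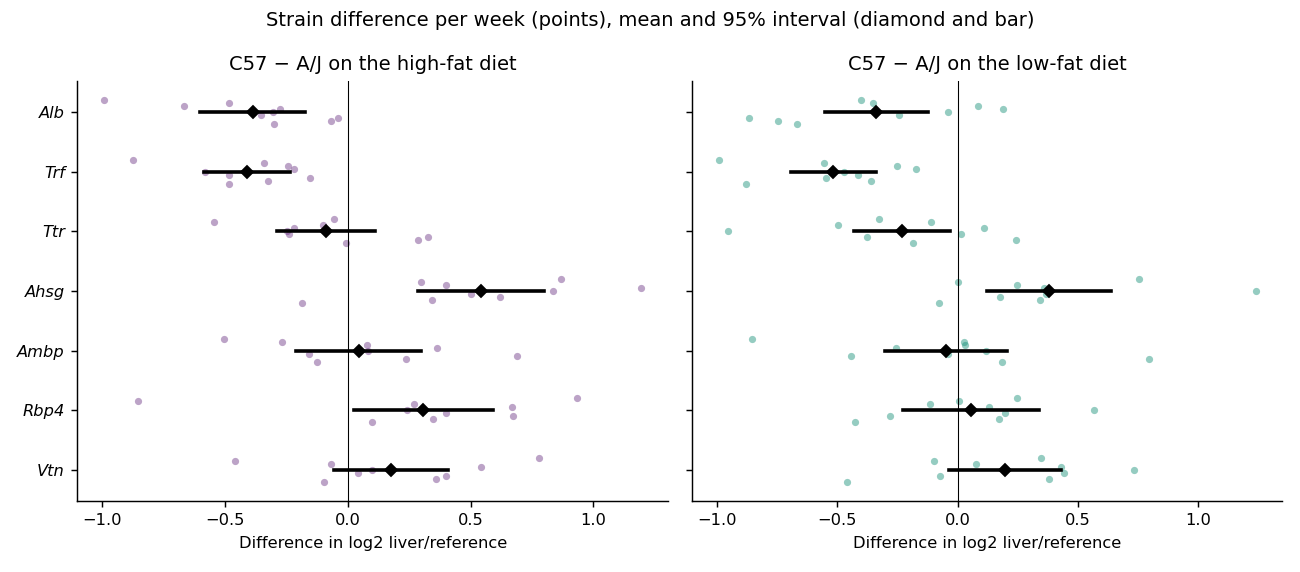
Difference in level between C57 and A/J livers (x axis, log2 units) for each gene (y axis), on the high-fat diet (left) and the low-fat diet (right), with a point for each of 9 weeks and a diamond with a bar for the mean and its 95% interval. Every Trf point lies below 0, and 8 of 9 Ahsg points on each diet lie above 0.

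Averaging both diets, an alternative added after the data were seen, gave -0.46 for Trf (limma adjusted p = 2.50e-06), -0.36 for Alb (adjusted p = 0.00119) and 0.46 for Ahsg (adjusted p = 0.000625), so 3 of 7 genes passed, where 7.84% of all probes did. The early and the late weeks were also fitted apart, again after the data were seen. With weeks 1, 3 and 4 alone 0 of 7 genes passed on the high-fat diet (Alb -0.11, Trf -0.30, Ahsg 0.28), where 0.591% of all probes did. On the low-fat diet Alb alone passed, at -0.76 (limma adjusted p = 0.0368), where 0.197% of probes did, and Trf missed at -0.59 (adjusted p = 0.222). With weeks 5 to 7 and 9 to 11 alone Alb (-0.51, limma adjusted p = 0.0204), Trf (-0.46, adjusted p = 0.0397) and Ahsg (0.68, adjusted p = 0.0255) passed on the high-fat diet, 3 of 7 where 2.17% of probes did. Under low-fat feeding Trf alone passed in those weeks (-0.47, limma adjusted p = 0.0367), where 1.57% of probes did, and Alb stood at -0.12 (adjusted p = 0.729).

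The strain contrast between these genes can also be read within each array, where centring cancels. The log2 ratio of Trf to Ahsg averaged 0.36 ± 0.25 in C57 and 1.30 ± 0.52 in A/J livers on the high-fat diet, and 0.44 ± 0.26 in C57 and 1.32 ± 0.41 in A/J livers on the low-fat diet (SD of 9 weekly means each). C57 differed from A/J by -0.94 with high-fat and -0.88 with low-fat feeding, or 1.92-fold and 1.84-fold lower, in 9 of 9 weeks on each diet. The ratio of Alb to Ahsg differed by -0.92 under high-fat and -0.72 under low-fat feeding, also in 9 of 9 weeks. Between Trf and Alb the strains differed by -0.06 and -0.18, lower in 6 and 7 of 9 weeks. These within-array ratios join genes picked for their opposite signs and are given without a test.

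**Figure D3:**
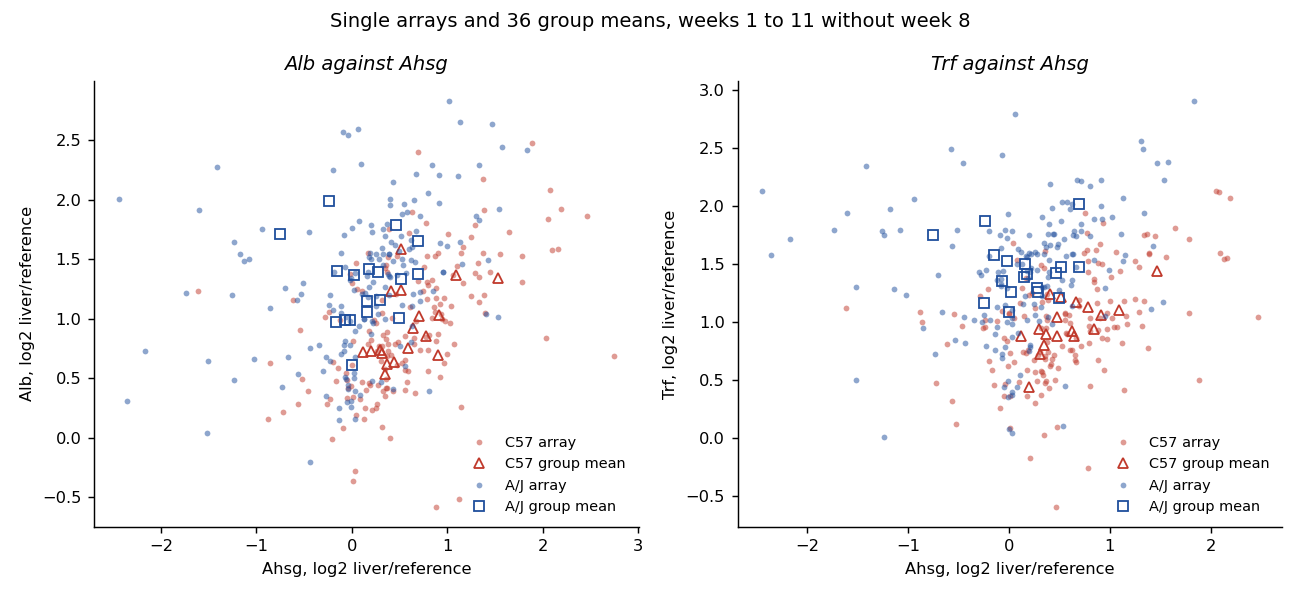
Alb level (left) and Trf level (right) on the y axis against Ahsg level on the x axis, in centred log2 units, for single arrays (dots) and group means of C57 (triangles) and A/J (squares). Most group means of C57 lie lower and further right than those of A/J, while the arrays of both strains overlap.

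The other 4 genes showed strain differences that did not pass on either diet. Rbp4, the retinol carrier, had a mean of 0.44 ± 0.43 in C57 and 0.13 ± 0.50 in A/J livers on the high-fat diet (SD of 9 weekly means each), a difference of 0.31 ± 0.14 (SE, limma adjusted p = 0.277) with 8 of 9 weeks positive. Week 10 stood apart at -0.85, and without it the difference was 0.45 and passed (limma adjusted p = 0.0354). With each week left out in turn the difference ran from 0.23 to 0.45 and passed in 1 of 9 fits, that one. The largest weekly difference was 0.93 at week 11. The A/J high-fat mean of week 11, -0.84, includes an array at -4.77, where the next array had -1.26. On the low-fat diet Rbp4 differed by 0.06 ± 0.14 (95% interval -0.23 to 0.34, limma adjusted p = 0.922). For vitronectin the difference was 0.18 ± 0.11 (-0.06 to 0.41, limma adjusted p = 0.498) under high-fat and 0.20 ± 0.11 (-0.04 to 0.43, adjusted p = 0.53) under low-fat feeding.

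Transthyretin differed by -0.09 ± 0.10 (-0.29 to 0.11, limma adjusted p = 0.728) under high-fat and by -0.23 ± 0.10 (-0.43 to -0.03, adjusted p = 0.313) under low-fat feeding. Ambp was closest to 0, at 0.04 ± 0.12 (-0.21 to 0.30) and -0.05 ± 0.12 (-0.30 to 0.21), with 5 of 9 weeks positive on each diet. A missed threshold does not show equal levels, and the intervals give the sizes that these data allow.

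At week 0 the signs of Alb, Trf and Ahsg were those of the later weeks, with smaller values that did not pass. This is a separate set of 39 arrays, compared array by array. Trf averaged 0.81 ± 0.39 (n = 17) in C57 and 1.05 ± 0.49 (n = 18) in A/J livers, Alb 0.71 ± 0.45 (n = 18) in C57 and 0.97 ± 0.36 (n = 19) in A/J livers, and Ahsg 0.31 ± 0.43 (n = 18) in C57 and 0.08 ± 0.43 (n = 18) in A/J livers (SD). The differences were -0.22 ± 0.15 for Trf, -0.26 ± 0.13 for Alb and 0.23 ± 0.14 for Ahsg (SE). They were uneven between the diet groups. Alb was 0.54 in C57 and 0.97 in A/J high-fat livers, but 0.91 and 0.96 in low-fat ones. Trf was 0.71 and 1.01 in high-fat, and 0.96 and 1.09 in low-fat livers. Ahsg was 0.24 and 0.19 in high-fat, but 0.40 and -0.06 in low-fat livers. In limma 0 of 7 genes passed (adjusted p 0.374 for Alb to 0.756 for Vtn), where 2.17% of 2715 probes did. Alb alone of the 7 had an unadjusted p under 0.05 in limma, and by p it ranked only 362nd of the 2715 probes. Week-0 arrays measured fewer probes, with a median of 5007 against 10767 over all arrays.

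Diet changed none of the 7 genes past the threshold. In C57 0 of 7 genes passed in limma, where 0.196% of all probes did. Alb was the only member with an unadjusted p under 0.05, where 483 of all 7643 probes had one. Its mean was 0.81 ± 0.24 under high-fat and 1.05 ± 0.33 under low-fat feeding, a difference of -0.24 ± 0.10 (SE, unadjusted p = 0.0290, adjusted p = 0.716 in limma) that was negative in 8 of 9 weeks. By week it was -0.01, -0.08, 0.11, -0.10, -0.02, -0.54, -0.48, -0.17 and -0.87 at weeks 1, 3 to 7 and 9 to 11. The 4 values furthest below 0 are those of weeks 7, 9, 10 and 11. A gap of the same sign was already present at week 0, which this list leaves out. There, Alb in C57 arrays labelled high-fat averaged 0.54 ± 0.47 (SD, n = 10). C57 arrays labelled low-fat averaged 0.91 ± 0.33 (SD, n = 8). That week-0 gap was not tested, and the diet difference of later weeks was not adjusted for it.

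In A/J 0 of 7 genes passed, where 0.0262% of all probes did. Ttr was the only member with an unadjusted p under 0.05, where 414 of all 7643 probes had one. Its mean was 1.37 ± 0.74 under high-fat and 1.57 ± 0.69 under low-fat feeding (SD of 9 weekly means each). The difference was -0.20 ± 0.10 (SE, unadjusted p = 0.0473, adjusted p = 0.898 in limma). Alb differed by -0.19 ± 0.10 (adjusted p = 0.942), with -0.38, -0.76 and -0.71 at weeks 1, 3 and 4 and -0.27 to 0.27 afterwards. For Trf the diet difference was 0.07 ± 0.09 in C57 and -0.04 ± 0.09 in A/J livers, and for Ahsg 0.15 ± 0.13 in C57 and -0.01 ± 0.13 in A/J livers.

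The diet difference was not found to differ between the strains, with 0 of 7643 probes called by limma and 204 at an unadjusted p under 0.05, and 0 of 7 members called (0% of all probes). A straight line of the strain difference against week was called for 3 probes (0.0393%) and for 0 of 7 members. The steepest member was Ambp, at -0.06 ± 0.03 per week (limma adjusted p = 0.840).

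Transthyretin carried the largest change with time among the members. Over the 24 group means of weeks 5 to 7 and 9 to 11 Ttr averaged 1.75 ± 0.35, against 0.66 ± 0.18 over the 12 group means of weeks 1, 3 and 4 (SD), a difference of 1.10 or 2.14-fold. The lowest later group mean, 1.25, lay above the highest early one, 1.04, as for 0.693% of all probes, and Ttr ranked 47th of 7643 by this difference. The cut between weeks 4 and 5 was not among the planned comparisons and falls where the Ttr lines step up. That share and rank are therefore a description, given without a test. All 4 combinations of strain and diet took part, with differences of 0.92 in C57 high-fat, 0.96 in C57 low-fat, 1.35 in A/J high-fat and 1.15 in A/J low-fat livers. Without centring the difference was 1.01, and after quantile normalization it was 0.99 with group means that overlapped (lowest later 1.00, highest early 1.12).

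At week 0 Ttr stood at 0.59 ± 0.38 (n = 9) in C57 high-fat, 0.92 ± 0.36 (n = 7) in C57 low-fat, 0.63 ± 0.31 (n = 10) in A/J high-fat and 0.62 ± 0.31 (n = 9) in A/J low-fat livers (SD over arrays). Week-0 arrays were centred over the 2715 probes tested there, and the others over 7643. The week-0 levels therefore have another 0 and are not placed against those of later weeks. Ambp was also higher later, at 0.66 ± 0.26 against 0.11 ± 0.33, and Vtn lower, at 0.25 ± 0.30 against 0.83 ± 0.34 (SD over 24 and 12 group means), with overlapping group means for both. The later minus early difference was 0.30 for Trf, 0.19 for Alb, 0.02 for Ahsg and -0.13 for Rbp4. The sign for Ahsg turned without centring (-0.07). All groups of a week share that week, and the labels give no hybridisation date, so age, feeding time and processing of the arrays cannot be told apart.

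Among arrays of the same strain, diet and week, most pairs of the 7 genes varied together, some of them weakly. Deviations from the group mean were correlated for all 21 pairs over 334 to 346 arrays, and the Pearson r was positive for 21 of 21, with a median of 0.36. In permutation tests within groups (two-sided, 100000 permutations) 18 of 21 pairs had an adjusted p under 0.05, and the smallest p these can give is 1e-05. The same count was not made over pairs of all probes, so the share called by this rule in general is not known. All values of an array share its RNA, its hybridisation, its pool sample and its centring, and arrays are not shown to be separate mice.

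The closest pair was Rbp4 and Vtn, with r = 0.69 and Spearman rho = 0.70 (n = 338, permutation adjusted p = 1.50e-05). Without 2 arrays r was 0.68, here and below those with levels furthest from the median of the first gene named. Arrays extreme only in the second gene stay in. Within weeks r ran from 0.17 to 0.93. Ahsg and Vtn had r = 0.62 (rho = 0.58, n = 339), with 0.59 without 2 arrays and 0.31 to 0.88 within weeks. Ahsg and Rbp4 had r = 0.49 (rho = 0.48, n = 339), 0.46 without 2 arrays and -0.21 to 0.93 within weeks. The permutation adjusted p of both pairs was also 1.50e-05. For all 3 pairs the highest r within a week was that of week 5. That week holds A/J low-fat sample 47, at -2.35, -2.39 and -3.77 for Ahsg, Rbp4 and Vtn. Without it and A/J high-fat week 6 sample 54, r over all weeks was 0.67 for Rbp4 and Vtn. It was then 0.58 for Ahsg and Vtn and 0.45 for Ahsg and Rbp4. The strain differences of these 3 genes were positive on both diets, and of the 3 only Ahsg passed, on the high-fat diet.

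Albumin and transferrin, the pair lower in C57, had r = 0.59 (rho = 0.63, n = 340, permutation adjusted p = 1.50e-05), 0.59 without 2 arrays and 0.33 to 0.82 within weeks. Trf and Ttr had r = 0.45 (rho = 0.48, n = 334), and Ttr and Ambp r = 0.41 (rho = 0.41, n = 340), each with a permutation adjusted p of 1.50e-05. Among all other tested probes, the r of Trf with Alb exceeded that of 99.9% of them with Alb, and the r of Vtn with Rbp4 exceeded that of 99.99% of them with Rbp4. Ranked in this way against all probes, the 18 called pairs ran from 76.97% to 99.99%. The lowest were Ttr with Rbp4 (76.97% of probes had a lower r with Rbp4) and Ambp with Ahsg (77.1% with Ahsg), so a called pair was not always far from the other probes. The median r of a tested probe with Alb was 0.02. By strain, Ttr with Rbp4 had r = 0.29 in C57 and -0.03 in A/J livers. Ambp with Rbp4 had 0.32 in C57 and 0.000458 in A/J livers, and neither gap between strains was tested. Both A/J values include A/J low-fat week 5 sample 47, at 4.45 for Ttr, 1.30 for Ambp and -2.39 for Rbp4. Without it and A/J high-fat week 6 sample 54, r over both strains went from 0.15 to 0.21 for Ttr with Rbp4. For Ambp with Rbp4 it went from 0.17 to 0.19. The r by strain was not computed without these arrays.

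Genes whose strain differences had opposite signs were positively correlated within groups. Alb and Ahsg had r = 0.51 (rho = 0.52, n = 342, permutation adjusted p = 1.50e-05), with 0.51 in C57, 0.50 in A/J and 0.05 to 0.79 within weeks. Trf and Ahsg had r = 0.32 (rho = 0.34, n = 338, permutation adjusted p = 1.50e-05), with 0.38 in C57 and 0.28 in A/J, and were positive in 7 of 9 weeks (-0.08 to 0.64). Over the 36 group means, which hold the strain difference, r was -0.12 for Alb and Ahsg and -0.24 for Trf and Ahsg, given as a description.

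The 3 pairs that did not pass were Ttr with Ahsg (r = 0.08, rho = 0.16, permutation adjusted p = 0.214), Ttr with Vtn (r = 0.04, rho = 0.16, adjusted p = 0.547) and Ambp with Vtn (r = 0.06, rho = 0.13, adjusted p = 0.328). All 3 had positive r in C57 (0.23, 0.21 and 0.25) and negative r in A/J (-0.06, -0.11 and -0.10), a difference that was not tested. The first 2 of these rest on single arrays. Without A/J low-fat week 5 sample 47, at 4.45 for Ttr and -2.35, -2.39 and -3.77 for Ahsg, Rbp4 and Vtn, and A/J high-fat week 6 sample 54, r was 0.16 for both (permutation adjusted p = 0.0129 and 0.00685).

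**Figure D4:**
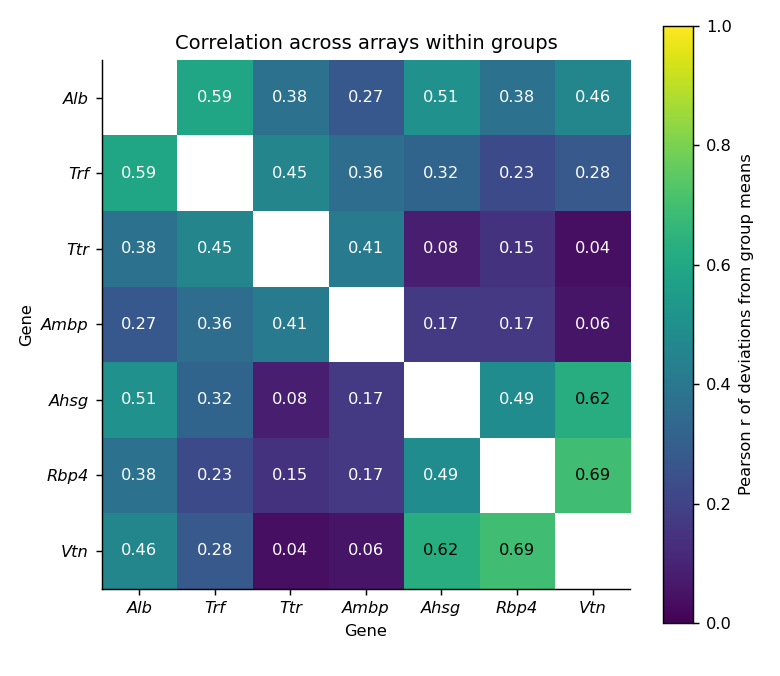
Pearson r (colour and number) between deviations from the group mean for each pair of genes, over 334 to 346 arrays. The strongest are Rbp4 with Vtn at 0.69, Ahsg with Vtn at 0.62 and Alb with Trf at 0.59, and the weakest is Ttr with Vtn at 0.04.

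Receptors and partners of the carriers, a small set, held no called strain difference, where 3.94% of all probes passed under high-fat and 2.39% under low-fat feeding. Of the iron genes 5 of 13 were measured and 0 passed on either diet, with a median difference of -0.09 under high-fat and -0.18 under low-fat feeding. They include the transferrin receptor Tfrc (low-fat -0.18 ± 0.12, SE) and Hamp, which encodes the iron hormone hepcidin (high-fat -0.23 ± 0.13, low-fat -0.19 ± 0.13). Of the retinol genes 8 of 16 were measured and 0 passed, among them the retinal dehydrogenase Aldh1a1 (0.25 ± 0.09 and 0.20 ± 0.09) and Stra6, a receptor for Rbp4 (high-fat 0.13 ± 0.08). For albumin 3 of 6 were measured, with the recycling receptor Fcgrt at -0.02 ± 0.08 and 0.06 ± 0.08. For vitronectin it was 5 of 7, with its receptor subunit Itgb3 at -0.24 ± 0.10 and -0.11 ± 0.10, and for bikunin 3 of 6, with its heavy chain partner Itih3 at -0.17 ± 0.09 and -0.09 ± 0.09 (high-fat before low-fat). For fetuin 1 of 3 was measured, the asialoglycoprotein receptor subunit Asgr2, at -0.09 ± 0.16 and -0.30 ± 0.16. None of the genes of these lists passed in limma on either diet, and 0 of 7 of the thyroid hormone list were measured widely enough.

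Among other plasma protein genes made by liver, 39 of 82 were measured, and 2 of 39 passed on the high-fat diet, where 3.94% of all probes did. Of these, 1 was higher in C57, the fibrinogen chain gene Fgb (0.38 ± 0.10, limma adjusted p = 0.0192), and 1 was lower, Apcs, the pentraxin serum amyloid P (-0.80 ± 0.15, adjusted p = 0.00103). The median of the list was 0.02, against 0.00 over all probes, and 21 of 39 were positive. Under low-fat feeding 0 of 39 passed, where 2.39% of all probes did, with a median of -0.04 and 14 of 39 positive, and Fgb stood at 0.34 (limma adjusted p = 0.0616) and Apcs at -0.51 (adjusted p = 0.0783).

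Regulators of liver transcription, 11 of 19 measured, had 0 called on either diet, with medians of 0.03 under high-fat and -0.06 under low-fat feeding. The smallest p on the high-fat diet was that of Cebpd, a C/EBP factor, at -0.19 ± 0.08 (limma adjusted p = 0.209). Of the 11 hepatocyte markers Fgb alone passed, on the high-fat diet, with list medians of 0.17 under high-fat and 0.10 under low-fat feeding and 9 and 8 of 11 positive. Markers of skeletal muscle (5 measured), kidney (3), macrophages and leukocytes (3), endothelium (2), stellate cells and matrix (3), bile duct (4), adipose tissue (1), brain (4), lung (1), testis (1) and heart (2) had 0 called, 0 of 6 red blood cell markers were measured, and their part in the strain differences was not tested.

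The named genes with group means most like those of each member over the 36 groups were ranked by Pearson r. For Alb these were its fellow carrier Trf (0.74), Chmp5 (0.65) and Ttl (0.65). For Trf they were Suds3 (0.81), Ankrd55 (0.78) and Resf1 (0.77), and for Ttr Hsd11b1 (0.91), the enzyme that regenerates active glucocorticoid, Mrpl50 (0.91) and Bnip3 (0.89). Ahsg was nearest to Ckap5 (0.85), Pramel13 (0.84) and Dusp12 (0.81), and Rbp4 to Ly6e (0.78), the complement gene C8g (0.74) and Pramel13 (0.73). Ambp was nearest to the sulfotransferase gene Sult2a8 (0.83), Pygm (0.82) and Ccdc88c (0.80), and Vtn to Ttc28 (0.90), Stra6l (0.88) and Il1f5 (0.88). Groups of a week share its week effect, which enters each r.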

How the data were processed

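The authors deposited 1 table of values whose scale is not stated. They were read as linear ratios (fold of liver Cy5 over pool Cy3, dyes per the labels' descriptions) from the values, since each array's mean is 1, and every log2 level and fold rests on that reading. Of all cells 42.4% are empty, and 0.251% of measured values lie below 0. Image analysis, background correction and normalization are not given in the sources used here. Log2 was taken without a pseudocount, leaving out values of 0 or less, and each array was centred on its median over the tested probes (measured on at least 70% of arrays and 3 of every group).

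The 36 group means were modelled with limma 3.58.1 (R 4.3.3), with terms for week and for each pairing of strain and diet. At week 0 it was fitted to single arrays, whose spread may be partly technical. SciPy 1.17.1 and pandas 2.3.3 served for correlations. The code was tested on simulated data.

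The members, lists and exclusion of week 8 were chosen with earlier results of these data known. Named beside the members were the 3 named genes most like each and, from each list, genes past the threshold in a strain contrast or otherwise among the 3 with the smallest p. Symbols come from the probe table (14711 probes with 1 symbol), updated by Entrez identifier for 14416. Alternatives were no centring, quantile normalization, looser and stricter filters, group medians, single arrays, a block for sample number, other array and week sets, and each week left out.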

Additional observations from a re-analysis of the deposited data

Results flagged for a closer look

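In 22 of 280 combinations of gene and group (7.86%) the highest or lowest array stood apart from its group by Dixon's criterion, where chance gives about 1 in 20. Arrays are named by group and values are centred log2 levels. The A/J low-fat group of week 5 held an array with Ttr at 4.45 (next 2.44), Ahsg at -2.35 (next -0.73), Rbp4 at -2.39 (next -0.39) and Vtn at -3.77 (next -0.91), all of them sample 47. This array had 6082 measured probes and the lowest correlation kept with the median of all arrays, 0.245. The A/J high-fat group of week 6 held sample 54 with Alb at 0.0412 (next 1.19), Ahsg at -1.51 (next 0.20) and Vtn at -2 (next 0.14), with 4803 measured probes and a correlation of 0.442. With both arrays left out, chosen after the data were seen, Ahsg on the high-fat diet differed between C57 and A/J by 0.51 (limma adjusted p = 0.0174) and Alb by -0.41 (adjusted p = 0.0221).

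For Trf the lowest arrays that stood apart were at -0.59 in C57 low-fat week 10, 0.0391 in A/J high-fat week 1 and 0.10 in A/J low-fat week 4. Ttr had low arrays at -0.24 in C57 low-fat week 6 and -0.997 in A/J high-fat week 3. Ahsg had 1 more at -0.88 in C57 high-fat week 5. Ambp had low arrays at -1.66 in C57 low-fat week 4 and -0.81 in A/J high-fat week 0. For Rbp4 they were at -1.14 in C57 low-fat week 10, at -0.79 and 1.08 in A/J high-fat weeks 0 and 1, and at -4.77 in A/J high-fat week 11, where the next array had -1.26. Vtn had arrays at 1.89 in C57 low-fat week 3, 1.69 in A/J high-fat week 0 and -0.67 in A/J low-fat week 7.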

How the results depend on the processing

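Trf on both diets kept its sign and its call under every alternative over all 9 weeks, while the fits to weeks 1, 3 and 4 alone lost it, and Trf, Ttr and Vtn were not testable over all 10 weeks. Replicates share sample numbers between groups only as names. The replicate block over single arrays had a correlation of 0.00133 and called 852 and 555 probes for strain on the high-fat and the low-fat diet, 139 for diet in C57, 33 in A/J, 3 for their difference and 63 for a line with week. Single arrays without the block called 852, 554, 139, 33, 3 and 59. Both called Alb and Ahsg on the low-fat diet (-0.34 and 0.38). At week 0 the block had -0.0335 and 50 probes called.

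Probes called for strain on the low-fat diet (183 in the report) were 281 after quantile normalization, 36 over all 10 weeks, 599 with diets averaged and 19 with weeks 1, 3 and 4. On the high-fat diet (301) they were 55 over all 10 weeks, 599 with diets averaged, 57 with weeks 1, 3 and 4 and 173 with weeks 5 to 11. For diet in C57 (15) there were 2 over all 10 weeks, and in A/J (2) there were 4 after quantile normalization, 1 with the stricter filter, 1 with group medians and 0 over 10 weeks. A line with week (3) had 1 with group medians and 0 over 10 weeks, and week 0 (59) had 23 with the stricter filter. Leaving out single weeks gave 230 to 273 and 123 to 184 for strain on the high-fat and the low-fat diet, 5 to 19 and 0 to 2 for diet in C57 and A/J, and 0 to 4 for a line with week.

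Calls gained on the low-fat diet were Ahsg after quantile normalization (0.33, limma adjusted p = 0.0401) and Alb with the stricter filter (-0.35, adjusted p = 0.0403), and on the high-fat diet Rbp4 with group medians (0.43, adjusted p = 0.0485). Over all 10 weeks, which include the 28 unlike week 8 arrays, Alb (-0.28) and Ahsg (0.36) lost the high-fat call (limma adjusted p = 0.456 and 0.426). The cause was not tested.

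Signs that turned belong to values that did not pass in either fit. Ambp on the low-fat diet was 0.0118 without centring, 0.0063 over 10 weeks, 0.18 with weeks 1, 3 and 4 and -0.15 to 0.0527 with weeks left out. On the high-fat diet it was -0.00914 with group medians, -0.12 over 10 weeks, -0.00221 with diets averaged, -0.0687 with weeks 5 to 11 and -0.0364 to 0.11 with weeks left out. With weeks 1, 3 and 4, Rbp4 (-0.18) and Vtn (-0.0485) turned on the low-fat and Ttr (0.22) on the high-fat diet, and Rbp4 on the low-fat diet ran from -0.0119 to 0.12 with weeks left out. The diet difference of Ahsg in A/J was 0.00638 without centring, 0.16 over 10 weeks and -0.12 to 0.0558 with weeks left out, and in C57 -0.0456 over 10 weeks. For Ambp the diet difference in A/J was -0.0491 after quantile normalization, -0.00515 with the stricter filter, -0.00964 with group medians, -0.00137 with unlike arrays kept and -0.0713 to 0.0941 with weeks left out, and in C57 -0.10 over 10 weeks. Trf in C57 was -0.0372 after quantile normalization, and Vtn in A/J 0.00687 with group medians. Without centring r was -0.00896 for Ttr and Vtn and 0.10 for Ttr and Rbp4 (permutation adjusted p = 0.117).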
